A study of Mus musculus with 32 samples.

Results

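The 44 genes described here encode collagen chains, laminin chains and fibronectin, the proteins that build the fibres and sheets of the extracellular matrix. They were taken by symbol alone from a table of 17586 mouse genes: every symbol made of Col, a number, the letter a and a number, every laminin alpha, beta or gamma chain, and Fn1. The rule found 32 collagen genes, 10 laminin genes, Fn1 and Col4a3bp. Col4a3bp encodes a ceramide transfer protein and no collagen, and it matches only through an older symbol. It is kept in counts of 44 genes, while "the 43 chain genes" leaves it out. Every one of the 44 genes had a value in each of the 32 libraries, and no filter on low values was applied. Col1a1 and Col4a2, partners of chains described here, were not among the 17586 genes under these symbols. Nor were Col2a1, Col11a2, Col6a5, Lamb3 and some other chains and list genes. Counts by class or list therefore cover only the genes with values.

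RNA was sequenced from brain cells of mice separated by flow cytometry, in a mouse model of glioblastoma. GL-261, a glioma line of C57BL/6 origin, was grown in culture and implanted into the brain. The study compared macrophages that had entered the tumour with microglia, the resident macrophages of brain tissue. The 32 libraries fell into 4 populations of 8.

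The differentiated macrophages, the undifferentiated macrophages and the tumour microglia all came from immunocompetent chimeric mice that carried GL-261 tumours and received no treatment. Of each population's 8 libraries, 4 were labelled PEP-3 into WT, with C57BL/6J as the recipient (called WT mice here), and 4 were labelled WT into PEP-3, with Pep3/CD45.1 as the recipient (called Pep3 mice). Normal microglia came from 4 C57BL/6J and 4 Pep3/CD45.1 mice with no tumour and no labelled graft. The sources used here do not give how the chimeras were made, the sorting gates or the ages. The libraries also carry experiment labels. Both macrophage populations had label 3 in WT and 4 in Pep3 mice, tumour microglia had 4 in WT and 3 in Pep3 mice, and normal microglia had 1 in WT and 2 in Pep3 mice. Tumour, graft and experiment therefore cannot be told apart between tumour and normal microglia. No label ties a library to an animal, so the p-values reflect only the spread between libraries, which may be technical.

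Collagens are triple helices of alpha chains, secreted and cross-linked into fibrils, networks or beaded filaments. Laminins are cross-shaped trimers of an alpha, a beta and a gamma chain that, with collagen IV, form the sheets of basement membranes. In the healthy brain this matrix surrounds blood vessels and the meninges, and its best known producers are endothelial cells, pericytes, fibroblasts and astrocytes. Fibronectin is a secreted glycoprotein that cells bind through integrins and pull into fibrils, and tissue macrophages are among the cells known to make it.

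The values are the authors' scores, centred so that each gene averages 0 over all libraries and also within WT and within Pep3 mice. A score compares libraries for 1 gene. It gives no expression level, no fold change and no comparison of levels between genes, and the sequencing depth is unknown. All differences below are in units of the deposited scale, with ± 1 standard error from limma, for 8 libraries against 8. A gene was called higher or lower at a limma adjusted p below 0.05 over all 17586 genes. The table had lost 11 of its 32 sample directions before deposit, and 9 libraries kept under 50% of their own variation. These were 2 of differentiated macrophages (numbers 28 and 31) and 2 of undifferentiated macrophages (8 and 29). The others were 1 of tumour microglia (27) and 4 of normal microglia (1, 10, 18 and 26). Library medians over all genes ran from -0.628 to 0.581. Markers followed the split of macrophages from tumour microglia. In each macrophage population 8 of 8 microglia markers were lower and 8 of 8 markers of monocyte-derived macrophages were higher than in tumour microglia. Of all genes, 37% were higher and 6.35% lower in differentiated, and 36.7% and 5.19% in undifferentiated macrophages. Between the macrophage populations 1 of these markers was called, Ly6c2. In tumour against normal microglia 1 microglia marker was lower, and 1 macrophage marker was higher and 1 lower.

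RefSeq promoters were at hand for 31 of the 44 genes, and 4 are shown because their genes carry the patterns described next. Lamb1-1 and Lamb2 are alternative laminin beta chains whose macrophage differences had opposite signs, though those of Lamb2 did not pass on the deposited scores. Col1a2 and Col3a1 are fibrillar collagen chains whose scores moved alike. Each line is the 250 bases before the gene's start on build GRCm38.p6, 5′ to 3′. Capitals mark GGGCGG (the GC box), CCAAT (the CCAAT box) and TATAAA (the TATA box) on either strand, so a GC box on the other strand reads CCGCCC. Bases can belong to both a CCAAT box and a GC box, but no marked motifs overlap in these 4 lines.
Lamb1-1 (chr12:31265043-31265292, plus strand): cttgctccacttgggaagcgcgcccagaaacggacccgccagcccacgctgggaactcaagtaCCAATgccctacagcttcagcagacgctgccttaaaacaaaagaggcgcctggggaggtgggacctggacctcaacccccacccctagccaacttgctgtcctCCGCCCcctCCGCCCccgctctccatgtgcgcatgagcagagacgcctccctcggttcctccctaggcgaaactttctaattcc
Lamb2 (chr9:108479612-108479861, plus strand): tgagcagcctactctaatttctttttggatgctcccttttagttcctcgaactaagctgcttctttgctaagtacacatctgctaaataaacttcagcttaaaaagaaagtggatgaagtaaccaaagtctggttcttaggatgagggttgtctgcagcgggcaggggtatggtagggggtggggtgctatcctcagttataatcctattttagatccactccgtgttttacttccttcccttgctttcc
Col1a2 (chr6:4505368-4505617, plus strand): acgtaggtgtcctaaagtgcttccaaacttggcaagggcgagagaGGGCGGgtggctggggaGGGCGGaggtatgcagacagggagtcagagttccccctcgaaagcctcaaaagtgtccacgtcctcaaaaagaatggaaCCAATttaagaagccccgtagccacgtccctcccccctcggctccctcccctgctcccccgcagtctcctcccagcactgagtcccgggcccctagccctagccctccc
Col3a1 (chr1:45311288-45311537, plus strand): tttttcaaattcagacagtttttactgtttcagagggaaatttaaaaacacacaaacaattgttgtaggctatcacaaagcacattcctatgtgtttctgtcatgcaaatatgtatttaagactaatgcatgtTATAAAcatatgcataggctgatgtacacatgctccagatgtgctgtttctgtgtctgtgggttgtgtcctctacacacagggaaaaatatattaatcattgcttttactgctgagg
The promoters of Lamb1-1 and Col1a2 each held 2 GC boxes and 1 CCAAT box, that of Col3a1 held 1 TATA box, and that of Lamb2 held none of the 3 motifs in this window. GC content was 62% for Lamb1-1, 43.6% for Lamb2, 62% for Col1a2 and 35.2% for Col3a1. Over the 31 promoters a GC box stood in 58.1%, against 32.9% of all 27025 RefSeq promoters of the same length. The shares with a CCAAT box were 29% and 34.5%, and those with a TATA box 6.45% and 13%. Median GC content was 60.4% in the 31 promoters and 52% in all. Col1a2 and Col3a1 held none of these motifs in common in these windows.

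Most collagen and laminin chains and fibronectin were higher in tumour macrophages than in tumour microglia. In differentiated macrophages 37 of the 44 genes were higher, 0 were lower and 7 did not pass, and in undifferentiated macrophages 35 were higher, 0 were lower and 9 did not pass. The table as a whole leaned the same way: 37% of all genes were higher and 6.35% lower in differentiated macrophages, and 36.7% were higher and 5.19% lower in undifferentiated macrophages. Among the 44 genes the share called higher was 84.1% in differentiated and 79.5% in undifferentiated macrophages. The median difference of the 44 genes was 1.77 for differentiated and 1.77 for undifferentiated macrophages, beside 0.65 and 0.71 over all genes. Both comparisons use the same 8 tumour microglia libraries, so the values of a gene in one are not independent of its values in the other.

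With the median of each library subtracted first, the lean of the whole table was removed, and 19.8% of all genes were higher and 19.2% lower in differentiated macrophages, and 16.7% higher and 16.3% lower in undifferentiated macrophages. On that scaling 27 of the 44 genes were higher and 1 was lower in differentiated macrophages, and 23 were higher and 1 was lower in undifferentiated macrophages. Lamb2 was the gene called lower in both. All of the genes called higher on that scaling were also called on the deposited scores. In the alternative without the 9 libraries that kept under 50%, 0 of the 44 genes passed in either comparison with terms for the removed directions, which left 6 residual degrees of freedom. Without those terms, a choice made after the data were seen, 32 passed in differentiated and 32 in undifferentiated macrophages. The share of all genes called in that setting is not given here, so these counts cannot be set against the whole table. Fitted to the 16 libraries of each pair of populations alone, with 3 residual degrees of freedom, 1 of the 44 genes was higher in differentiated and 0 in undifferentiated macrophages.

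**Figure D1:**
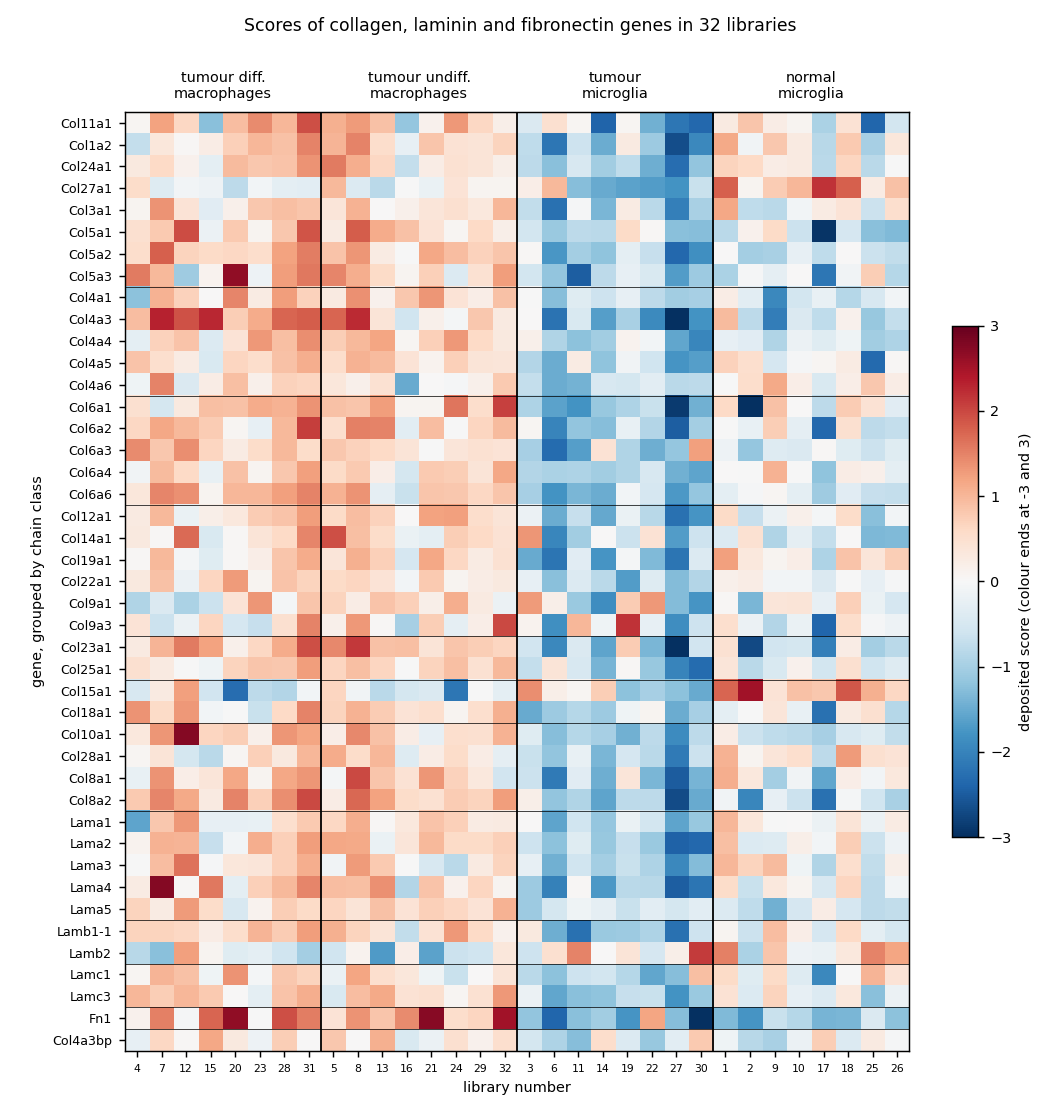
Deposited scores of 43 of the 44 genes (down the page, grouped by chain class) in the 32 libraries (across, by population and library number), with red above and blue below the gene's mean of 0. Tumour microglia form a mostly blue block, with 1 to 12 of the 42 chain genes drawn above 0 per library. There were 23 to 39 in differentiated and 22 to 40 in undifferentiated macrophages. Lamb2 and Col15a1 do not follow this block. The median of all genes was also below 0 in every tumour microglia library and above 0 in every macrophage library.

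The same contrast appeared library by library. The median score of the 43 chain genes ran from 0.08 to 1.25 in differentiated macrophages, from 0.02 to 1.05 in undifferentiated macrophages, from -1.80 to -0.50 in tumour microglia and from -0.75 to 0.37 in normal microglia. Every macrophage library lay above every tumour microglia library, and normal microglia overlapped both. The median of all genes separated the same libraries, at 0.0021 or above in macrophages and -0.0229 or below in tumour microglia. With it subtracted from the chain median, macrophage libraries stood at -0.0361 or above and tumour microglia libraries at -0.3542 or below. Normal microglia then ran from -0.4048 to 0.3395. The all-gene medians averaged 0.29 ± 0.17 (SD, n = 8) in differentiated macrophages, 0.29 ± 0.12 in undifferentiated macrophages, -0.33 ± 0.20 in tumour microglia and -0.14 ± 0.18 in normal microglia.

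Fibronectin had one of the larger differences from tumour microglia. The Fn1 score was -0.04 at the lowest, 1.52 at the median and 2.67 at the highest in differentiated macrophages, 0.41, 1.10 and 2.74 in undifferentiated macrophages, -3.18, -1.27 and 1.19 in tumour microglia and -1.76, -1.28 and -0.44 in normal microglia. A single tumour microglia library, number 22, reached into the macrophage range, and all 8 normal microglia libraries lay below all macrophage libraries. Fn1 was higher than in tumour microglia by 2.55 ± 0.56 in differentiated macrophages (limma adjusted p = 0.000982) and by 3.13 ± 0.59 in undifferentiated macrophages (limma adjusted p = 0.000306). Between tumour and normal microglia Fn1 did not pass, with a difference of -0.34 ± 0.54 (limma adjusted p = 0.708).

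The fibrillar collagens, which assemble into banded fibrils, were higher for 7 of 8 chains in differentiated and 7 of 8 in undifferentiated macrophages, with median differences of 1.99 and 1.81. After subtraction of the library medians these were 6 and 4 of 8. Col1a2, the alpha 2 chain of type I collagen, scored -0.72, 0.53 and 1.49 (lowest, median and highest) in differentiated macrophages, -0.25, 0.60 and 1.48 in undifferentiated macrophages, -2.65, -1.29 and 0.26 in tumour microglia and -1.01, 0.30 and 1.13 in normal microglia. The tumour microglia were low in most libraries, with an overlap by the top of their range. Its differences from tumour microglia were 2.08 ± 0.37 (limma adjusted p = 0.000175) in differentiated and 2.40 ± 0.39 (limma adjusted p = 9.18e-05) in undifferentiated macrophages. Col3a1, the chain of type III collagen found beside type I in loose tissue and vessel walls, scored -0.34, 0.62 and 1.34 in differentiated macrophages, 0.02, 0.37 and 1.04 in undifferentiated macrophages, -2.24, -0.89 and 0.25 in tumour microglia and -0.80, 0.09 and 1.16 in normal microglia. Here too the macrophages and the upper tumour microglia libraries overlapped. Its differences were 1.77 ± 0.34 (limma adjusted p = 0.000331) and 1.83 ± 0.36 (limma adjusted p = 0.000419) in the same order.

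Type V collagen limits the width of type I fibrils, and its chains were all higher on the deposited scores. Col5a2 scored 0.52, 0.65 and 1.78 in differentiated macrophages, -0.01, 0.84 and 1.32 in undifferentiated macrophages, -2.35, -1.12 and 0.03 in tumour microglia and -1.03, -0.69 and 0.02 in normal microglia. No differentiated macrophage library overlapped either kind of microglia. The Col5a2 differences were 2.29 ± 0.33 (limma adjusted p = 2.55e-05) and 2.23 ± 0.34 (limma adjusted p = 5.69e-05). Col5a1 differed by 1.65 ± 0.48 and 1.49 ± 0.50, and Col5a3 by 2.01 ± 0.54 and 1.74 ± 0.57, with limma adjusted p-values between 0.00466 and 0.0203. Calls of both genes were lost when single libraries were left out. Without tumour microglia library 27 the differentiated macrophage difference did not pass for Col5a1 (1.55) or Col5a3 (1.75), nor did it for Col5a1 without differentiated macrophage library 31 (1.07) or for Col5a3 without library 28 (1.80). The undifferentiated macrophage difference of Col5a3 did not pass without tumour microglia library 27 (1.49). After subtraction of the medians Col5a1 passed in neither population, at 0.98 and 0.77 (limma adjusted p = 0.0777 and 0.193), and Col5a3 did not pass in undifferentiated macrophages, at 1.01 (limma adjusted p = 0.149).

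The remaining fibrillar chains were Col11a1, a chain of cartilage collagen XI, and the minor fibrillar collagens Col24a1 and Col27a1. Col11a1 differed by 2.16 ± 0.52 in differentiated macrophages (limma adjusted p = 0.00198) and by 1.83 ± 0.54 in undifferentiated macrophages (limma adjusted p = 0.00927). The second call was lost without undifferentiated macrophage library 29 (1.5) or tumour microglia library 27 (1.60), and with library medians subtracted, at 1.11 (limma adjusted p = 0.1). Col24a1 differed by 1.97 ± 0.36 and 1.78 ± 0.37, with limma adjusted p-values of 0.000192 and 0.000791. Col27a1 was the exception, at 0.71 ± 0.48 and 0.99 ± 0.50, with limma adjusted p-values of 0.243 and 0.115.

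Collagen IV, the network of basement membranes, was higher for 5 of 5 chains in differentiated and 4 of 5 in undifferentiated macrophages. After that subtraction these were 2 of 5, Col4a3 and Col4a5, and 3 of 5, which added Col4a4. Col4a3, known from the basement membrane of kidney glomeruli and lung alveoli, had the largest difference of the 44 genes. It scored 0.73, 1.78 and 2.31 in differentiated macrophages, -0.59, 0.32 and 2.24 in undifferentiated macrophages, -3.93, -1.72 and 0.01 in tumour microglia and -2.08, -0.74 and 0.95 in normal microglia. The 8 differentiated macrophage libraries lay above all tumour microglia libraries, while undifferentiated macrophages overlapped with them. Col4a3 differed from tumour microglia by 3.68 ± 0.49 in differentiated macrophages (limma adjusted p = 1.75e-05) and by 2.41 ± 0.51 in undifferentiated macrophages (limma adjusted p = 0.000896).

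Col4a1, a chain of nearly every basement membrane, moved less. It scored -1.24, 0.69 and 1.45 in differentiated macrophages, 0.13, 0.61 and 1.38 in undifferentiated macrophages, -1.27, -0.71 and -0.01 in tumour microglia and -1.93, -0.40 and 0.22 in normal microglia. Undifferentiated macrophages lay above all tumour microglia libraries, and differentiated macrophages overlapped with them through library 4. The Col4a1 differences were 1.32 ± 0.38 (limma adjusted p = 0.00776) and 1.70 ± 0.40 (limma adjusted p = 0.00184). The call in differentiated macrophages was lost without their library 28, at 0.52, and on the scaling with library medians subtracted Col4a1 passed in neither comparison, at 0.65 and 0.98. Col4a5 differed by 1.75 ± 0.33 and 1.79 ± 0.35, and Col4a4 was called in both. Col4a6 was higher in differentiated macrophages (1.40 ± 0.40, limma adjusted p = 0.00673) and did not pass in undifferentiated macrophages (0.83 ± 0.41, limma adjusted p = 0.111). Col4a3 and Col4a4 are neighbouring genes, as are Col4a5 and Col4a6.

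Collagen VI forms beaded microfilaments around cells, and 5 of its 5 measured chains were higher in both macrophage populations, with median differences of 2.00 and 1.88. Col6a1, a core chain, scored -0.53, 0.89 and 1.36 in differentiated macrophages, 0.07, 0.85 and 2.04 in undifferentiated macrophages, -2.88, -1.29 and -0.66 in tumour microglia and -3.0, 0.22 and 0.87 in normal microglia. Both macrophage populations lay above all tumour microglia libraries. Col6a1 differed by 2.00 ± 0.48 (limma adjusted p = 0.00196) and 2.70 ± 0.50 (limma adjusted p = 0.000283), and the differentiated macrophage call was lost without tumour microglia library 27, at 1.04. Its neighbour on chromosome 10, Col6a2, also a core chain, differed by 2.14 ± 0.47 and 2.11 ± 0.49. Col6a6, a chain that can take the place of the third core chain, differed by 2.37 ± 0.37 and 1.88 ± 0.38, and Col6a3 and Col6a4 by 1.27 to 1.73. In all, 4 of 5 chains were higher on the median-subtracted scores in each population, and Col6a3 was at 0.98 and 0.55 (limma adjusted p = 0.0694 and 0.343).

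**Figure D2:**
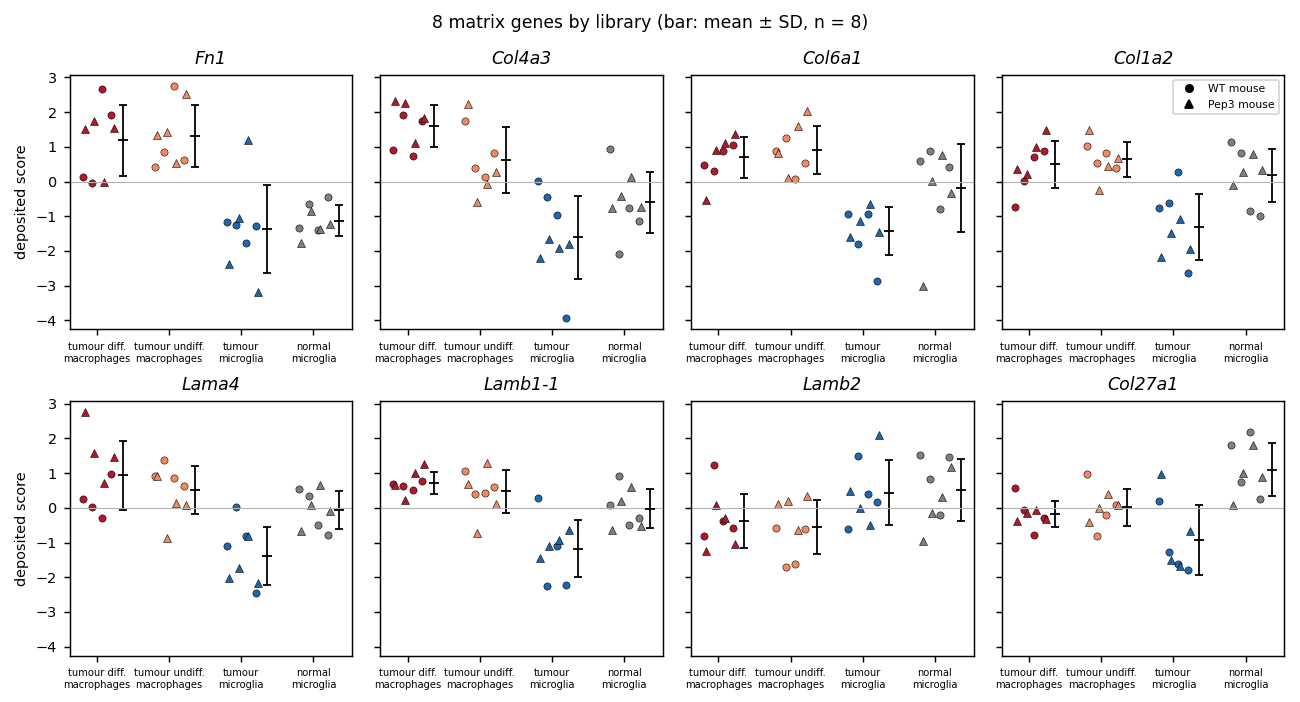
Deposited score of 8 genes in every library of the 4 populations, with circles for WT and triangles for Pep3 mice and a bar for the mean ± SD (n = 8). Fn1, Col4a3, Col6a1, Col1a2, Lama4 and Lamb1-1 sit low in tumour microglia; Lamb2 does not, and Col27a1 is highest in normal microglia, with a median of 0.94.

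Fibril-associated collagens coat other fibrils and were mixed, with 3 of 6 higher in each macrophage population. Col12a1 differed by 1.88 ± 0.31 (limma adjusted p = 8.4e-05) and 2.23 ± 0.32 (limma adjusted p = 3.77e-05), and its undifferentiated macrophage libraries, from 0.02 to 1.22, lay above the tumour microglia libraries, from -2.23 to -0.18. Col19a1 differed by 1.78 ± 0.38 and 2.06 ± 0.40, and Col22a1 was called in both, though not in undifferentiated macrophages with library medians subtracted (0.58). Col9a1, Col9a3 and Col14a1 did not pass in either. Their differences were 0.25, 0.55 and 1.10 in differentiated macrophages and 1.18, 0.94 and 1.22 in undifferentiated macrophages.

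Collagens of other kinds were higher on the deposited scores with 1 exception, Col15a1. The transmembrane collagen Col23a1 differed by 2.24 ± 0.49 and 2.58 ± 0.51, and Col25a1, a transmembrane collagen whose shed part is found in human amyloid plaques, was called in both. The Col23a1 call in differentiated macrophages was lost without tumour microglia library 27, at 1.18. Col8a1 and Col8a2, the chains of the network collagen VIII, differed by 2.20 ± 0.40 and 2.48 ± 0.42 in differentiated macrophages and by 2.18 ± 0.41 and 2.31 ± 0.44 in undifferentiated macrophages. Col10a1, a chain best known from growth-plate cartilage, differed by 2.23 ± 0.39 (limma adjusted p = 0.000155) and 1.71 ± 0.41 (limma adjusted p = 0.00221), with all 8 libraries of each macrophage population above those of tumour microglia. Col28a1 was called in both. Of the multiplexins, basement-membrane collagens with broken helices, Col18a1, the source of endostatin, was called in both and Col15a1 in neither. On the median-subtracted scores, neither population passed for Col18a1 (0.82 and 0.93) or Col28a1 (0.52 and 0.79), and Col10a1 did not pass in undifferentiated macrophages (0.99, limma adjusted p = 0.0509).

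Laminin alpha chains, which carry the cell-binding end of the trimer, were higher for 5 of 5 genes in both macrophage populations. Lama4, a chain of vascular and muscle basement membranes, scored -0.30, 0.85 and 2.75 in differentiated macrophages, -0.87, 0.75 and 1.38 in undifferentiated macrophages, -2.47, -1.41 and 0.03 in tumour microglia and -0.79, 0.00 and 0.64 in normal microglia. The tumour microglia were low, though the macrophages overlapped the highest of them. Lama4 differed by 2.65 ± 0.34 (limma adjusted p = 1.44e-05) and 2.19 ± 0.36 (limma adjusted p = 9.42e-05). Lama2, the chain of muscle and nerve laminin, differed by 1.99 ± 0.37 and 2.28 ± 0.39. Lama3, the chain of epithelial anchoring laminin, differed by 1.92 ± 0.40 in differentiated macrophages, which lay above all tumour microglia libraries, and was called in undifferentiated macrophages. Lama1, a chain of early embryonic basement membrane, differed by 1.76 ± 0.38 in undifferentiated macrophages and was called in differentiated macrophages. Lama5, the main chain of adult epithelial and vascular laminin, had the smallest called difference, 0.87 ± 0.33 in differentiated macrophages (limma adjusted p = 0.0363), and 1.27 ± 0.34 in undifferentiated macrophages (limma adjusted p = 0.00538). Of the 5 alpha chains, 3 were higher in each population once library medians were subtracted. Lama5 then passed in neither (0.20 and 0.55), Lama1 did not pass in differentiated macrophages (0.44) and Lama3 did not in undifferentiated macrophages (0.61).

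The laminin beta chains had differences from tumour microglia of opposite sign. Lamb1-1, the older symbol of Lamb1, scored 0.22, 0.67 and 1.25 in differentiated macrophages, -0.73, 0.51 and 1.29 in undifferentiated macrophages, -2.24, -1.10 and 0.29 in tumour microglia and -0.65, -0.10 and 0.92 in normal microglia. Of the tumour microglia libraries 1 stood in the range of differentiated macrophages and 2 in that of undifferentiated macrophages. Lamb1-1 differed by 1.96 ± 0.42 (limma adjusted p = 0.00087) and 1.75 ± 0.44 (limma adjusted p = 0.00337). The undifferentiated macrophage call was lost without tumour microglia library 27, at 1.17, and with library medians subtracted, at 1.02 (limma adjusted p = 0.0515). Lamb2, the beta chain of neuromuscular and kidney basement membranes, scored -1.26, -0.48 and 1.22 in differentiated macrophages, -1.70, -0.59 and 0.34 in undifferentiated macrophages, -0.61, 0.28 and 2.10 in tumour microglia and -0.95, 0.58 and 1.51 in normal microglia. All 4 populations overlapped.

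Lamb2 differed by -0.92 ± 0.47 in differentiated macrophages (limma adjusted p = 0.12) and by -1.13 ± 0.49 in undifferentiated macrophages (limma adjusted p = 0.068), and passed in neither. With library medians subtracted it was lower in both, by -1.58 ± 0.46 (limma adjusted p = 0.0112) and -1.85 ± 0.48 (limma adjusted p = 0.00685). It was also called lower in both without normal microglia library 1 (-1.23 and -1.49) or undifferentiated macrophage library 8 (-1.64 and -1.66). In undifferentiated macrophages alone it was called lower without normal microglia library 26 or tumour microglia library 3, 22 or 27, at -1.16 to -1.49, and without the terms for the removed directions, at -1.0. It was the only one of the 44 genes with a negative difference in differentiated macrophages, and Col15a1 was the other in undifferentiated macrophages. Among laminin gamma chains, Lamc3 was higher in both, by 1.86 ± 0.38 and 1.83 ± 0.39. Lamc1, the common gamma chain, was higher in differentiated macrophages (1.40 ± 0.48, limma adjusted p = 0.0207) and did not pass in undifferentiated macrophages (0.89 ± 0.50, limma adjusted p = 0.156). The Lamc1 call was lost without differentiated macrophage library 7, 28 or 31 or tumour microglia library 27, at 1.08 to 1.24, and after subtraction of the library medians, at 0.73 (limma adjusted p = 0.19).

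Counted by ranges alone, all 8 differentiated macrophage libraries lay above all 8 tumour microglia libraries for 10 of the 44 genes, against 7.09% of all genes. These were Col10a1, Col22a1, Col24a1, Col4a3, Col5a2, Col6a1, Col6a4, Col6a6, Col8a2 and Lama3. Undifferentiated macrophages lay above tumour microglia for 11 genes, against 6.77% of all genes, among them Col10a1, Col12a1, Col18a1, Col22a1, Col4a1, Col6a1, Col8a2, Lama1, Lama2 and Lama5. In both populations the differences of the 44 genes were nearly all positive, 43 of 44 in differentiated and 42 of 44 in undifferentiated macrophages. The share of all genes with a positive difference is not given here, and the medians over all genes were also positive, at 0.65 and 0.71. Col4a3bp, which encodes no matrix chain, passed in neither comparison, at 0.62 ± 0.40 and 0.72 ± 0.41.

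**Figure D3:**
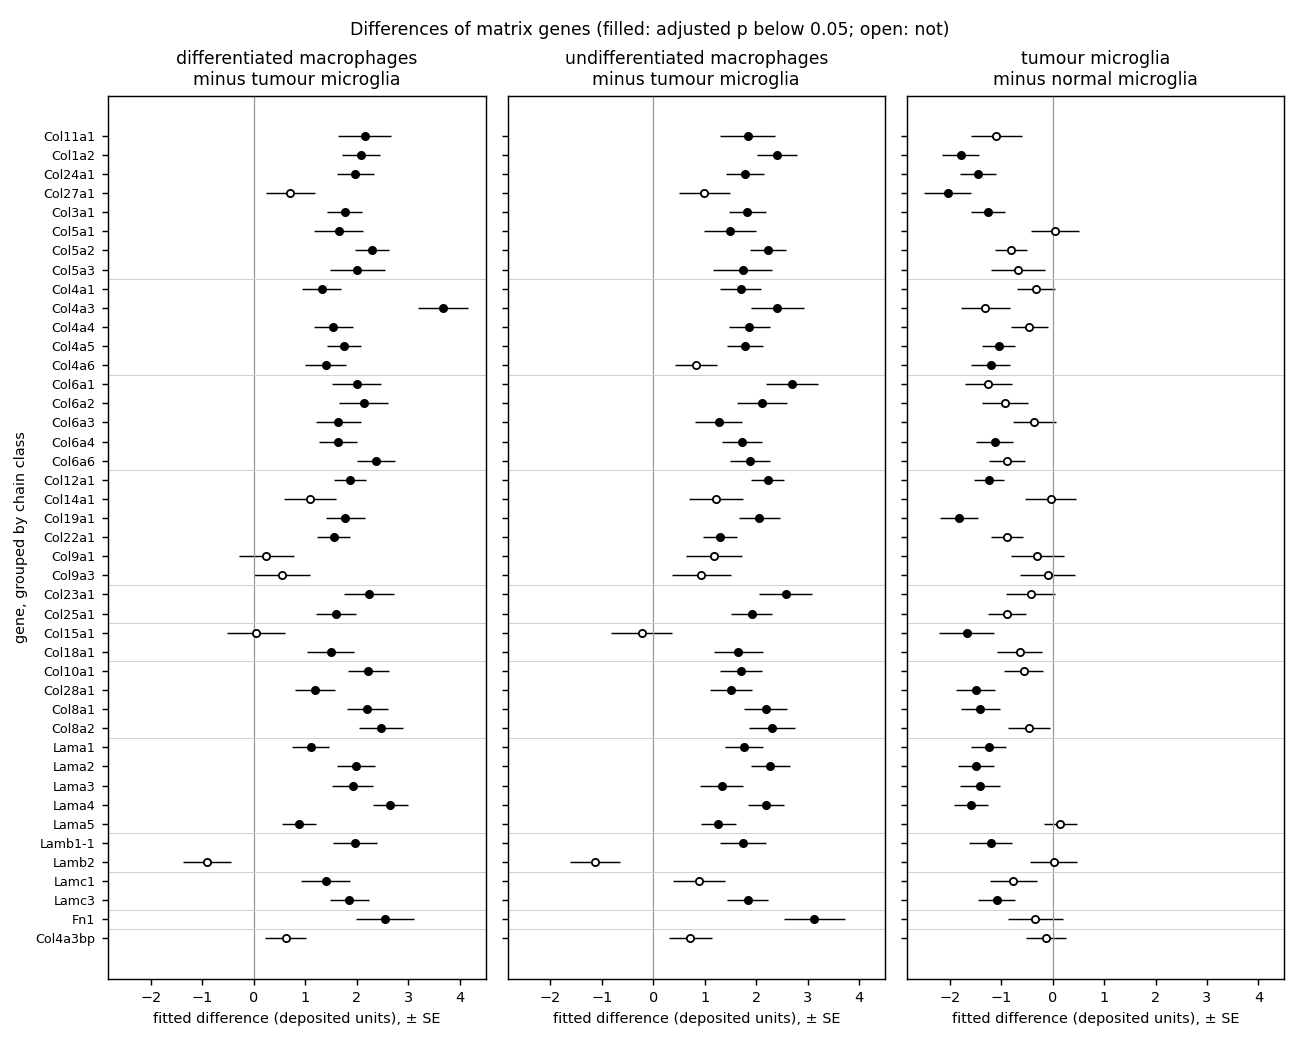
Fitted difference ± SE of 43 of the 44 genes in deposited units, for differentiated macrophages and undifferentiated macrophages, each minus tumour microglia, and for tumour minus normal microglia; filled points had a limma adjusted p below 0.05. Filled points lie right of 0 in both macrophage panels (36 and 34 of the genes drawn) and left of 0 in the microglia panel (18 of them).

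Tumour microglia had lower scores than normal microglia for part of the same set. Of the 44 genes 19 were lower, 0 were higher and 25 did not pass, beside 12% of all genes lower and 4.66% higher. The median difference of the 44 genes was -0.92, beside -0.25 over all genes, and 41 of the 44 differences were negative. The share of all genes with a negative difference is not given here. With library medians subtracted 12 of the 44 genes were lower and 0 higher, beside 7.6% of all genes lower and 7.72% higher. The 12 were Col12a1, Col19a1, Col1a2, Col24a1, Col27a1, Col28a1, Col3a1, Col8a1 and the laminin chains Lama1, Lama2, Lama3 and Lama4. No gene of the 44 had 8 tumour libraries below all 8 normal libraries, a separation that 0.762% of all genes showed.

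Fibrillar collagens supplied the largest difference. Col27a1 scored -1.78, -1.40 and 0.96 in tumour microglia and 0.09, 0.94 and 2.17 in normal microglia, with 2 tumour libraries inside the normal range. It was lower in tumour microglia, at -2.04 ± 0.46 (limma adjusted p = 0.00479). Col1a2 differed by -1.78 ± 0.36 (limma adjusted p = 0.00222), Col24a1 by -1.45 ± 0.34 and Col3a1 by -1.26 ± 0.33 (limma adjusted p = 0.0121). Of the other collagens, Col19a1 differed by -1.82 ± 0.37, Col28a1 by -1.5 ± 0.37, Col8a1 by -1.40 ± 0.38, Col12a1 by -1.24 ± 0.30, Col4a6 by -1.20 ± 0.38, Col6a4 by -1.13 ± 0.36 and Col4a5 by -1.05 ± 0.32. Col15a1, a multiplexin of vessel and muscle basement membranes, scored -1.52, -0.47 and 1.40 in tumour microglia and 0.42, 0.97 and 2.51 in normal microglia. It was lower in tumour microglia, at -1.67 ± 0.54 (limma adjusted p = 0.0363).

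Among laminins 4 of 5 alpha chains were lower in tumour microglia: Lama4 (-1.58 ± 0.33), Lama2 (-1.49 ± 0.36), Lama3 (-1.42 ± 0.39) and Lama1 (-1.25 ± 0.35). Lamb1-1 (-1.21 ± 0.41) and Lamc3 (-1.09 ± 0.36) were also lower, and the limma adjusted p-values of these 6 genes ran from 0.00276 to 0.0458. Lamb2 differed by 0.02 ± 0.45 (limma adjusted p = 0.979), Lamc1 by -0.77 ± 0.46 (limma adjusted p = 0.259) and Col4a1 by -0.32 ± 0.37 (limma adjusted p = 0.592). These calls depended on few libraries. Without normal microglia library 1 or library 18, 0 of the 44 genes passed, without library 10 there were 4, without library 26 there were 10, and without tumour microglia library 27 there was 1, Col19a1. Without all 9 libraries that kept under 50%, 0 passed with or without terms for the removed directions, while the median difference of the 44 genes was -0.90 with and -0.49 without them.

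The macrophage populations were close to each other. Between differentiated and undifferentiated macrophages 0 of the 44 genes were called by limma, 1 had an unadjusted p below 0.05, and all adjusted p-values were 1, while 2 genes of the whole table were lower, which is 0.0114%, and 0.0% were higher. The gene with the low unadjusted p was Col4a3, with a difference of 1.27 ± 0.57. The differences of the 44 genes ran from -0.93 for Col9a1 to 1.27 for Col4a3, with 21 positive and 23 negative. Fn1 differed by -0.58 ± 0.65, Col1a2 by -0.32 ± 0.43, Col3a1 by -0.06 ± 0.39, Col4a1 by -0.38 ± 0.44, Lamb1-1 by 0.22 ± 0.49 and Lamc1 by 0.51 ± 0.55. Only 67.6% of this contrast was left after the directions were removed, against 96.7% of the contrast of tumour with normal microglia, and differences within these errors were not detectable. Ly6c2, a monocyte gene outside the set, was lower in differentiated macrophages by -3.17 ± 0.48 (limma adjusted p = 0.0172).

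By mean score, tumour microglia were the lowest of the 4 populations for 38 of the 44 genes, beside 45.6% of all genes. Normal microglia were lowest for Col14a1, Col5a1, Col9a3 and Lama5, and undifferentiated macrophages for Col15a1 and Lamb2. Differentiated macrophages were highest for 22 genes, undifferentiated macrophages for 18 and normal microglia for Col15a1, Col27a1, Col28a1 and Lamb2. None of the 44 genes was called between the macrophage populations, so which of them stood highest is not settled beyond the spread. Put together by call, 35 genes were higher in both macrophage populations than in tumour microglia, and 16 of these were also lower in tumour than in normal microglia. Over all genes these patterns held for 31.8% and 9.37%, and the 3 comparisons share the 8 tumour microglia libraries. Col27a1 and Col15a1 were lower in tumour than in normal microglia and passed in neither macrophage comparison. Col14a1, Col9a1, Col9a3, Lamb2 and Col4a3bp passed in none.

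WT and Pep3 mice were compared separately because recipient and experiment label coincide within a population. In the deposited means, differentiated macrophages were above tumour microglia for 40 of 44 genes in WT and 43 in Pep3 mice, with median differences of 1.41 and 1.69. For undifferentiated macrophages these were 42 genes in WT and 42 in Pep3 mice, with medians of 1.46 and 1.67. Tumour microglia were below normal microglia for 37 genes in WT and 40 in Pep3 mice, with medians of -0.60 and -0.94. Sign counts over all genes are not given here, so these counts cannot be set against the lean of the whole table. Fits to 1 recipient strain had 3 residual degrees of freedom and called 0 of the 44 genes in these 3 comparisons. A difference between the strains passed in the microglia comparison for 3 of the 44 genes, beside 884 of all 17586 genes. In the comparison of differentiated macrophages with tumour microglia it passed for Lama4, beside 79 of all genes. In the other comparisons it passed for 0 of the 44 genes.

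Other genes of the matrix pathway were counted from 4 lists, to be read beside the 37% and 36.7% of all genes higher in differentiated and undifferentiated macrophages. With library medians subtracted 19.8% of all genes were higher and 19.2% lower in differentiated, and 16.7% and 16.3% in undifferentiated macrophages. In tumour against normal microglia 4.66% of all genes were higher and 12% lower on the deposited scores. Of 22 enzymes and chaperones that process collagen, 11 were higher and 3 lower in differentiated macrophages, and 9 were higher and 1 lower in undifferentiated macrophages than in tumour microglia. The shares higher were 50% and 40.9%, and the median differences were 1.13 and 0.95. On the median-subtracted scores, 5 were higher and 5 lower in differentiated macrophages, and 4 were higher and 3 lower in undifferentiated macrophages. P4ha3, a prolyl hydroxylase subunit, differed by 2.59 ± 0.51 and 2.30 ± 0.53, Adamts3, a procollagen peptidase, by 2.03 ± 0.38 and 2.08 ± 0.40, and Plod2, a lysyl hydroxylase, by 1.94 ± 0.47 and 1.96 ± 0.49. The lower ones were the lysyl hydroxylase Plod1 (-1.06 ± 0.37 and -1.3 ± 0.38) and, in differentiated macrophages, Plod3 (-0.87) and P4hb (-0.90), a subunit of prolyl hydroxylase. In tumour against normal microglia 0 were higher and 1 lower, which was Plod2, at -1.66 ± 0.45.

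Of 16 matrix receptors, 8 were higher and 1 lower in differentiated macrophages, and 9 were higher and 1 lower in undifferentiated macrophages. Once library medians were subtracted 6 were higher and 3 lower in each. The integrin chain Itga3 differed by 2.54 ± 0.50 and 2.33 ± 0.52. The syndecans Sdc1 and Sdc4, heparan sulfate co-receptors, differed in differentiated macrophages by 2.19 ± 0.48 and 2.14 ± 0.46. In undifferentiated macrophages the collagen-binding integrin chain Itga11 differed by 2.42 ± 0.53 and the hyaluronan receptor Cd44 by 2.24 ± 0.46. The lower one in both was Itga6 (-1.33 and -1.54), the alpha chain of laminin-binding integrins. Between tumour and normal microglia 1 receptor was higher, Cd44 (1.44 ± 0.42). The 4 lower ones were the collagen uptake receptor Mrc2 (-1.64 ± 0.43), the integrin chain Itga1 (-1.39 ± 0.29), the collagen receptor kinase Ddr2 (-1.12) and Itga6 (-1.04).

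Of 12 proteins that join laminin and collagen in basement membranes, 8 were higher in differentiated and 7 in undifferentiated macrophages, and 1 was lower in each. After subtraction of the medians 5 were higher and 1 lower in each. The lower one was Sparc, a collagen-binding glycoprotein. Sparc scored -2.96, -1.97 and -0.02 in differentiated macrophages, -2.91, -1.78 and -0.45 in undifferentiated macrophages, 0.86, 1.18 and 1.66 in tumour microglia and 1.5, 2.19 and 3.16 in normal microglia. No macrophage library overlapped with microglia, and the differences were -3.01 ± 0.41 and -3.59 ± 0.43. Hmcn1, a large linker protein of basement membranes, was higher by 2.21 ± 0.35 and 2.17 ± 0.37. Nid1, which ties laminin to collagen IV, was higher by 2.04 ± 0.32 in differentiated macrophages, and Hspg2, the proteoglycan perlecan, by 2.02 ± 0.46 in undifferentiated macrophages. Between tumour and normal microglia 1 was higher, the heparan sulfate proteoglycan Agrn (1.26), and 4 were lower: Smoc2 (-1.51 ± 0.34), Nid1 (-1.47 ± 0.31), Egflam (-1.40 ± 0.35) and Hmcn1 (-1.12).

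Of 16 other matrix glycoproteins 14 were higher and 0 lower in each macrophage population, with median differences of 2.34 and 2.20, and 10 were higher in each with library medians subtracted. The largest were Tgfbi, a protein that binds collagen and integrins (4.58 ± 0.33 and 5.06 ± 0.35), Emilin2 (3.74 ± 0.51 and 3.76 ± 0.53) and Emilin1 (3.59 ± 0.54 and 2.91 ± 0.57), glycoproteins of elastic fibres. In tumour microglia 1 was higher than in normal microglia, Ecm1 (1.3). The 4 lower ones were the elastic fibre protein Fbln5 (-2.44 ± 0.46), tenascin C, Tnc (-2.13 ± 0.39), fibrillin, Fbn1 (-1.80 ± 0.35), and the proteoglycan versican, Vcan (-1.71).

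Markers of other cell types were counted in the same way. These counts are to be read beside the 37% and 36.7% of all genes higher in differentiated and undifferentiated macrophages. With library medians subtracted these shares were 19.8% and 16.7%. In tumour microglia 12% of all genes were lower than in normal microglia on the deposited scores. Of 9 genes listed as pericyte and fibroblast markers 9 were higher in each macrophage population and 3 were lower in tumour than in normal microglia. Whether these genes mark only those cells here was not tested. Once library medians were subtracted 7 were higher in differentiated and 6 in undifferentiated macrophages. Their mean score per library ran from 0.22 to 1.43 in differentiated macrophages, 0.23 to 1.19 in undifferentiated macrophages, -1.90 to -0.28 in tumour microglia and -0.99 to 0.05 in normal microglia. Among them Tbx18 differed by 2.26 ± 0.35 and 2.48 ± 0.37 from tumour microglia, Cspg4 by 2.47 ± 0.54 and 2.51 ± 0.57, Anpep by 2.58 ± 0.39 in differentiated and Pdgfra by 2.32 ± 0.43 in undifferentiated macrophages. Between tumour and normal microglia Tbx18 differed by -2.04 ± 0.34, Abcc9 by -1.40 ± 0.40 and Pdgfra by -1.34 ± 0.40.

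Of 8 endothelial markers 6 were higher in differentiated and 5 in undifferentiated macrophages, and 2 were lower in tumour than in normal microglia. With library medians subtracted 3 were higher in each macrophage population. Their mean score ran from -0.05 to 1.11 in differentiated macrophages, 0.01 to 0.92 in undifferentiated macrophages, -1.49 to -0.39 in tumour microglia and -1.0 to 0.10 in normal microglia. Emcn differed by 2.83 ± 0.33 and 2.18 ± 0.34, Tek by 1.81 ± 0.46 and 2.45 ± 0.48, Flt1 by 1.61 ± 0.52 in differentiated and Kdr by 1.65 ± 0.31 in undifferentiated macrophages. The others called were Kdr, Esam and Pecam1 in differentiated and Flt1 and Esam in undifferentiated macrophages. Emcn (-1.77 ± 0.32) and Tek (-1.41 ± 0.44) were lower in tumour than in normal microglia. Of 8 astrocyte and glioma markers 5 were higher and 1 lower in each macrophage population, with Prom1 (1.79 ± 0.36 and 1.70 ± 0.37), Egfr (1.67 ± 0.34 and 1.94 ± 0.36), Sox9, Aqp4 and Gfap higher and Slc1a3 (-1.63 ± 0.37 and -1.53 ± 0.38) lower. Of these, 2 were higher and 1 lower in each on the median-subtracted scores. In tumour against normal microglia Aldh1l1 was higher (2.12 ± 0.56) and Egfr (-1.12 ± 0.33) and Prom1 (-1.03 ± 0.34) were lower.

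Of 6 oligodendrocyte markers 2 were higher in each macrophage population, a share of 33.3% that is below the share of all genes, Mobp (2.15 ± 0.47 and 2.34 ± 0.49) and Sox10 (1.69 ± 0.43 and 1.28 ± 0.45), and Cnp was higher in tumour than in normal microglia (1.70 ± 0.36). On the median-subtracted scores 2 were higher in differentiated macrophages, and 1 was higher and 1, Cnp, lower in undifferentiated macrophages. Neuron markers were higher for 3 of 4 genes in each macrophage population, and 2 of 4 were lower in tumour than in normal microglia. Stmn2 differed by 2.25 ± 0.33 and 2.01 ± 0.34 and Snap25 by 1.41 ± 0.49 and 1.74 ± 0.51 from tumour microglia, Syt1 by 1.43 ± 0.54 and 1.85 ± 0.56, and Stmn2 (-1.33 ± 0.31) and Snap25 (-1.51 ± 0.47) were lower in tumour than in normal microglia. Once library medians were subtracted Stmn2 was the 1 neuron marker higher in each macrophage population. The scores have no zero level, so whether any of these markers was absent from a population cannot be read from them. More cells of a type and more RNA per cell cannot be told apart in such sorted samples. The part of other cells in the chain gene differences was not tested.

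**Figure D4:**
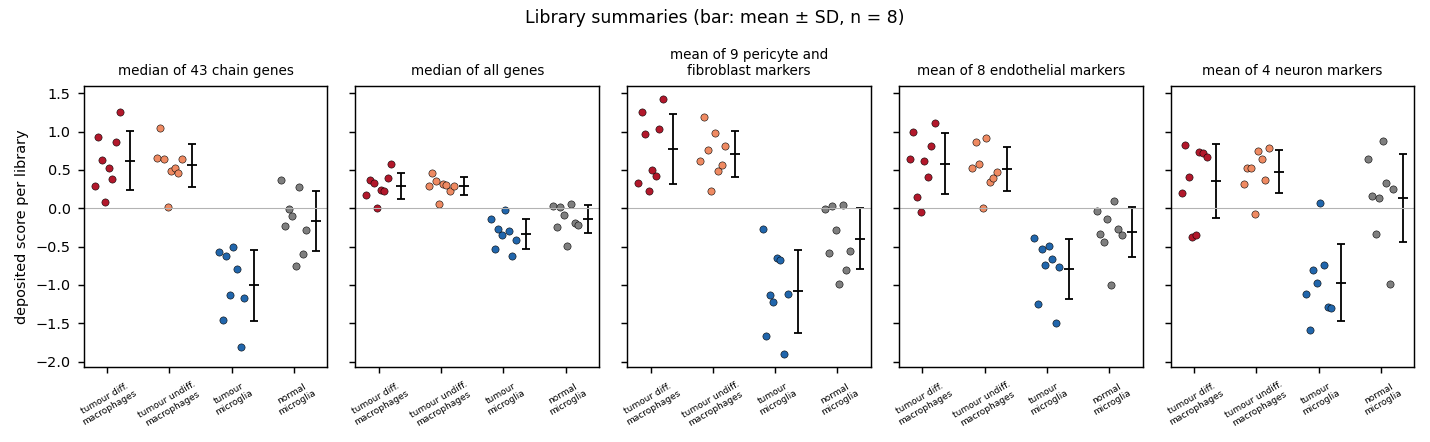
Deposited scores summarised per library for the 4 populations: the median of the 43 chain genes, the median of all genes, and the mean of 9 pericyte and fibroblast, 8 endothelial and 4 neuron markers, with a bar for the mean ± SD (n = 8). In each panel tumour microglia lie lowest by mean and both macrophage populations highest; all-gene medians span -0.628 to 0.581, and chain medians -1.80 to 1.25.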

How the data were processed

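RNA was sequenced from 32 libraries of flow-sorted mouse brain cells. The cDNA came from the Clontech SMART-Seq v4 low-input kit, per the labels' protocols, and per the submitters' processing notes FastQC, STAR 2.5.0a and RSEM 1.3.0 were used with build mm9. The authors deposited 1 table of 17586 genes, named as normalised counts, whose values are signed scores from -6.50 to 6.92 on a scale that those sources do not name. Per the values, each gene averages 0 over all libraries and within each recipient strain, and the 32 libraries span 21 dimensions, so 11 sample directions were removed before deposit. The step that removed them is not given in the sources used here. Depth is unknown, so low-level genes have a precision that cannot be judged. What a library kept of its own variation is 1 minus the squared projection of that library on the removed directions, in percent.

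Groups came from the labels. No 2 libraries were copies, the highest correlation between libraries being 0.889. The scores of all genes were fitted with limma 3.58.1 in R 4.3.3 without filter, pseudocount or trend, with 1 mean per combination of population and recipient, robust empirical Bayes variances and terms for the removed directions, which left 15 residual degrees of freedom. The two-sided p-values were adjusted by the Benjamini-Hochberg method. Contrasts were averaged over the strains. The model was tested on simulated data for comparisons of populations, but not for the strain differences. Alternatives left out those terms, the robust option, libraries or recipient strains, or subtracted library medians.

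The 44 genes and all lists were chosen with earlier results of these data known. In each comparison the text names called members, up to the 25 with the largest difference, with Fn1, Col1a2, Col3a1, Col4a1, Lamb1-1 and Lamc1 in any case, and up to 3 called genes of each other list. Other names, such as Lamb2, Plod1, Itga6, Agrn and Ecm1, and the remaining called genes, were added after their values were seen. Of the 44 genes, 1 is counted but not reported by name here. Promoters are from RefSeq, build GRCm38.p6, while the table was made on mm9, so no gene coordinates were joined to it. All 44 symbols matched RefSeq, Col4a3bp as Cert1 and Lamb1-1 as Lamb1.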

Additional observations from a re-analysis of the deposited data

Results flagged for a closer look

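Scores of single libraries stood apart in 6 of 176 groups of 8 libraries, which is 3.41%, where chance gives about 1 in 20. The gap between the extreme library and its nearest neighbour, as a share of the group's range, was above Dixon's critical value in each. Col10a1 was 2.76 in differentiated macrophage library 12. Col11a1 was -1.16 and Col4a6 was -1.51 in undifferentiated macrophage library 16. Lamc1 was 0.90 in tumour microglia library 30. In normal microglia Col4a5 was -2.32 in library 25 and Col6a1 was -3.0 in library 2.

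Differences between recipient strains were tested in the same limma model, as the comparison in Pep3 mice minus that in WT mice. Between tumour and normal microglia the fitted value was -5.51 ± 1.58 for Col11a1 (limma adjusted p = 0.0461), -4.53 ± 1.02 for Col4a5 (limma adjusted p = 0.0183) and -4.78 ± 1.21 for Col8a1 (limma adjusted p = 0.0276). In the deposited means Col8a1 was -1.59 in Pep3 tumour microglia and 0.18 in Pep3 normal microglia, against -0.78 in WT tumour microglia and -0.40 in WT normal microglia. Among all 17586 genes, 884 passed this test. Between differentiated macrophages and tumour microglia Lama4 had a fitted value of 4.50 ± 0.92 (limma adjusted p = 0.0474), 1 of 79 genes that passed. Its deposited means were 1.63 in Pep3 differentiated macrophages and -1.69 in Pep3 tumour microglia, against 0.24 in WT differentiated macrophages and -1.09 in WT tumour microglia. The fitted values include the terms for the removed directions. For Col8a1 and Lama4 they were larger in size than the strain differences in these deposited means. Recipient and experiment label coincide within each population, and in the tumour populations the graft label does too. The part of each therefore cannot be told apart.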

How the results depend on the processing

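No paired analysis was run, because the library numbers in the labels are unique and shared by no 2 groups. In number order the libraries run in repeating sets that hold each population and recipient strain once. Whether the libraries of a set share animals or a day is not given, so no block was fitted. Of the main counts, 37 higher in differentiated and 35 higher in undifferentiated macrophages than in tumour microglia, and 19 lower in tumour than in normal microglia, none moved by over 1.5 times without the robust option or, for counts above 0, without terms for the removed directions. With library medians subtracted the count for undifferentiated macrophages was 23, that for tumour microglia was 12, and Lamb2 was 1 gene called lower in each macrophage population; it was also 1 lower in undifferentiated macrophages without the terms. With WT mice alone, with Pep3 mice alone, and without the 9 libraries that kept under 50%, all 3 counts were 0, with 3, 3 and 6 residual degrees of freedom. With only the groups compared they were 1 in differentiated macrophages, 0 in undifferentiated macrophages and 2 in tumour microglia. Without the 9 libraries and without the terms, a choice made after the data were seen, the count in tumour microglia was 0. Leaving out 1 library of the populations compared gave 28 to 37, 27 to 38 and 0 to 25, and 0 to 1 called lower in undifferentiated macrophages; Lamb2 was also called lower in differentiated macrophages without a library of another population.

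Some named differences changed sign; the cause was not tested, and none passed after the change. In tumour against normal microglia, WT mice alone gave 0.089 for Lama2, 0.30 for Col8a1, 1.02 for Col3a1, 0.71 for Col12a1, 1.81 for Col4a5 and 0.73 for Col4a1, and Pep3 mice alone 0.64 for Col27a1, 0.32 for Lamb1-1 and 0.48 for Lamc1. Col4a1 was 0.040 without the 9 libraries and the terms, and -0.84 to 0.068 leaving out 1 library, where Fn1 ran from -1.47 to 0.14. Between differentiated macrophages and tumour microglia, Pep3 mice alone gave -0.23 for Col11a1, -0.86 for Col6a1, -0.012 for Col24a1 and -0.56 for Lamb1-1. For undifferentiated macrophages, WT mice alone gave -0.058 for Col6a2, -0.21 for Col11a1 and -1.28 for Lamc3, and Pep3 mice alone -0.16 for Col24a1 and -0.57 for Lamb1-1. Without the 9 libraries Lamb1-1 was -0.33 and -0.089 in the same order of macrophages, and Lamc1 was -0.34 in undifferentiated macrophages. Between macrophage populations, where nothing was called, Col4a1 ran from -0.68 to 0.17, Lamb1-1 from -0.13 to 0.47 and Col3a1 from -0.24 to 0.087 leaving out 1 library. Lamb1-1 was -0.24 without the 9 libraries and -0.18 with only these populations, and Col3a1 was 0.059 without the terms, 0.013 without the 9 libraries and the terms, and 0.024 with only these populations.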
